A study of Mus musculus with 36 samples.

Results

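Vegfa, Vegfb, Apln, Kdr, Flt1, Tie1, Pecam1, Cdh5, Sox17 and Sox18 are genes of blood vessel endothelium and of the signals that control vessel growth. They were taken by name from the gene column of the count table, and all 10 were found among its 46893 features. The plainest difference between the groups was in Sox18 and Flt1, which had their highest mean levels in the mice that ran the shorter distances. Vegfa, Vegfb, Kdr, Pecam1 and Sox17 passed the test in none of the 9 comparisons made.

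The libraries come from the gastrocnemius, a calf muscle, of 36 male wild-type C57BL/6 mice in 6 groups of 6, with 1 library per mouse, and the mice were 3 to 4 weeks old at the start of the 12 weeks. Sedentary mice were fed either the AIN93G diet (NFD-C) or a high-fat diet (HFD-C), and the other 24 mice were fed the same high-fat diet and ran on a wheel in the cage. The wheel was free in HFD-U, where the mice averaged 8.3 km/day, and was braked in HFD-25%, HFD-50% and HFD-75% once the assigned daily distance was run, which averaged 2.1, 4.2 and 6.3 km/day. The study asked how defined running distances change the muscle transcriptome under a high-fat diet, and these genes bear on the vessels of that muscle.

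New vessels grow when endothelial cells receive vascular endothelial growth factor. Vegfa, which muscle fibres also make, binds the receptors Kdr (VEGFR2), the main signalling receptor, and Flt1 (VEGFR1), which binds it tightly and acts largely as a decoy. Vegfb binds Flt1 only, and endurance exercise is well known to raise the number of capillaries around muscle fibres. Tie1 is the orphan partner of the angiopoietin receptor Tek, Pecam1 and Cdh5 (VE-cadherin) join endothelial cells to each other, Sox17 and Sox18 are transcription factors of the SoxF family of endothelium, and Apln encodes apelin, a peptide that sprouting tip cells release.

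The 3 receptor genes varied together from mouse to mouse, as described further on, and the 250 bases before the start of each are printed here so that what these promoters hold can be seen beside the levels. The sequences are those of RefSeq on GRCm38.p6, which gave a window for 6 of the 10 genes. All 3 genes lie on the minus strand, and the sequences read in the direction of the gene. The windows are chr5:147726012-147726261 for Flt1, chr5:75978456-75978705 for Kdr and chr4:118489850-118490099 for Tie1. Capitals mark GGAA and its reverse complement TTCC, the core that ETS factors bind, a family to which the endothelial factors Erg and Fli1 belong.
Flt1: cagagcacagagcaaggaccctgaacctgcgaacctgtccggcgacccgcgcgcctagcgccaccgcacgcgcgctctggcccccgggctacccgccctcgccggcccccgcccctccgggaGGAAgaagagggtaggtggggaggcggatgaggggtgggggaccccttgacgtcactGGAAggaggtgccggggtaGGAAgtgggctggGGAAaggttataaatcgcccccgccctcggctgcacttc
Kdr: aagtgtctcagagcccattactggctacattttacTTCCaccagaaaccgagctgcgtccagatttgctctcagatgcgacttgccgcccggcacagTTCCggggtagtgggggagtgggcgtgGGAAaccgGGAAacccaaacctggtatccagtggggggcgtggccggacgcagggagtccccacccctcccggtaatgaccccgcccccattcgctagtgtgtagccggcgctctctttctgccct
Tie1: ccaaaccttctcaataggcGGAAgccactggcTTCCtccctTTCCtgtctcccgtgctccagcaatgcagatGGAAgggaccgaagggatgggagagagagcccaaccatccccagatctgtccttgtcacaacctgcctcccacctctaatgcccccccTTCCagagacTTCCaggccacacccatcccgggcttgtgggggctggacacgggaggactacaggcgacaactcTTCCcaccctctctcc
The core is present 4 times in the window of Flt1, 4 times in that of Kdr and 7 times in that of Tie1. This is a common motif, since 93.4% of 32851 windows of this length hold it on either strand, with a median of 3 matches. The SOX core, ACAAT or its reverse complement ATTGT, is in none of these windows and in 27.7% of all windows. A match of letters is a description only and does not show that a factor binds there.

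Levels are given as CPM, that is reads on a gene as a share of the library, after scaling with TMM factors that correct for differences in the makeup of the libraries. Each library held 13060090 to 27981702 reads on genes (median 16710687.5). Fibre genes stood highest, as in muscle, with a mean of 26790 CPM for Acta1, the actin of skeletal muscle, in HFD-C. In all 24 running mice and 2 HFD-C mice, 0.404 to 1.02% of reads lay on 8 features listed as linked to ribosomal RNA. In the other 4 HFD-C and all 6 NFD-C mice the share was 2.02 to 3.81%. This split runs nearly parallel to running, so results are also given with the low-share libraries alone where that changes a call. Lars2 and Rn7sk were among the listed features, so the share, called ribosomal below, is not ribosomal RNA alone. The paper names Lars2 among its genes with a significant dose-response curve over running distance. Whether the share itself changes with running was not tested.

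Between genes, levels can be compared only per length. Divided by the length of each gene in kilobases, the mean CPM over the 36 mice was 72.8 for Vegfb and 58.8 for Vegfa, the most abundant of the 10. Pecam1 and Cdh5 followed with 16.6 and 14.7 CPM per kilobase. Tie1 had 7.91, Sox18 6.75, Flt1 5.56, Kdr 3.01 and Sox17 2.51 CPM per kilobase, and Apln was near the limit of detection with 0.273. So Vegfa and Vegfb, which the fibres themselves can express, stood above the receptor genes on this scale, and Apln, the third ligand gene, stood below them.

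**Figure D1:**
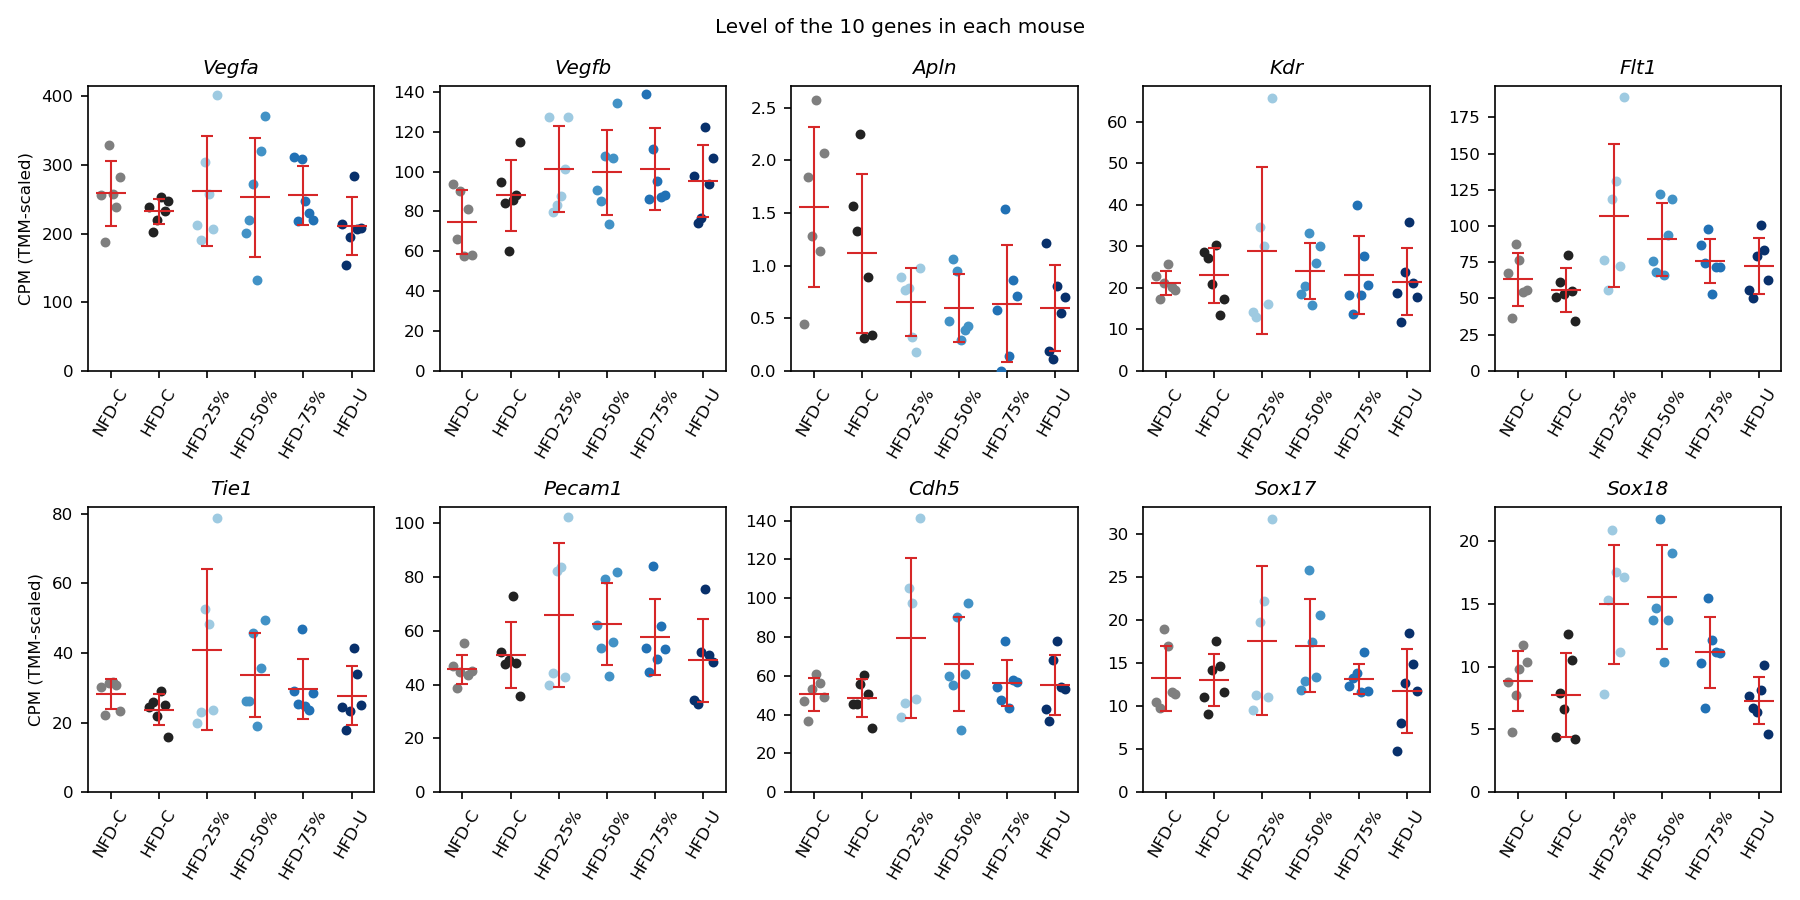
Level of each of the 10 genes in CPM (vertical axis) in each mouse (points) of the 6 groups (horizontal axis), with the mean and SD of each group in red. Sox18 lies between 7.82 and 21.8 CPM in HFD-25% and HFD-50% and between 4.26 and 12.6 CPM in HFD-C and HFD-U, and 3 of the HFD-25% mice stand above the others in most vessel genes.

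Vegfa differed little between the groups. Its lowest, median and highest levels were 203, 236 and 254 CPM in HFD-C and 187, 257 and 329 CPM in NFD-C. In the running mice these values were 190, 235 and 402 CPM in HFD-25%, 132, 246 and 371 CPM in HFD-50%, 219, 239 and 312 CPM in HFD-75%, and 154, 207 and 285 CPM in HFD-U. All groups overlapped, and the group means spanned 1.25-fold, but the running mice were more widely spread than HFD-C, whose 6 mice lay close together.

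Vegfb, the ligand of Flt1, had a mean of 88.0 ± 17.8 CPM (SD, n = 6) in HFD-C and 74.5 ± 16.0 CPM in NFD-C. In the exercise groups its means lay between 95.3 ± 18.3 CPM in HFD-U and 101 ± 20.7 CPM in HFD-75%. Every exercise group overlapped HFD-C, and at most 2 of its mice lay above the highest HFD-C mouse.

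Apln was sparse, with 0 to 47 reads per library, and passed the minimum count only in the comparison of the sedentary groups. Its highest mean was in NFD-C (1.56 ± 0.759 CPM, n = 6), followed by HFD-C (1.12 ± 0.753 CPM), and the means of the exercise groups lay between 0.594 and 0.652 CPM. No running mouse lay above the highest HFD-C mouse, which had 2.25 CPM, and 1 HFD-75% mouse had no read on Apln in a library of 22633484, which allows a level of up to 0.133 CPM, by counting error only. In exact two-sided permutation tests on log2(CPM + 1), no exercise group differed from HFD-C beyond the spread between mice, with the smallest exact p at 0.180 in HFD-50% (adjusted p = 0.384 over 6 tests). Aplnr, the apelin receptor, was lower in HFD-U than in HFD-C at the unadjusted limit, with a log2 fold change of -0.85 ± 0.34 (SE, edgeR adjusted p = 0.842).

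The receptor Kdr had a mean of 22.9 ± 6.74 CPM in HFD-C and 21.1 ± 2.93 CPM in NFD-C. The exercise groups lay between 21.4 ± 8.08 CPM in HFD-U and 28.9 ± 20.1 CPM in HFD-25%, where 1 mouse with 65.7 CPM stood well above the 34.7 CPM of the next. The groups overlapped widely, and Kdr did not pass in any comparison.

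Flt1 (gene ID 14254, chr5:147498414-147663419 of GRCm39, minus strand, protein coding) was the receptor gene that differed most. Its lowest, median and highest levels were 34.5, 53.8 and 80.1 CPM in HFD-C and 36.4, 61.8 and 87.6 CPM in NFD-C. They were 55.6, 97.3 and 189 CPM in HFD-25%, 66.1, 84.6 and 122 CPM in HFD-50%, 53.3, 73.0 and 98.0 CPM in HFD-75%, and 50.1, 71.1 and 101 CPM in HFD-U. All 6 mice of HFD-25% and of HFD-50% lay above the HFD-C median, and 3 of each lay above the highest HFD-C mouse.

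The test for each pair of groups was edgeR's quasi-likelihood test on counts, run on every gene whose mean count reached 25, and a gene was called at an unadjusted p of at most 0.05, the limit used in the study. Flt1 was higher than in HFD-C by 0.92 ± 0.27 on the log2 scale (SE, edgeR adjusted p = 0.423) in HFD-25%, by 0.70 ± 0.20 (edgeR adjusted p = 0.230) in HFD-50% and by 0.43 ± 0.18 (edgeR adjusted p = 0.847) in HFD-75%. So Flt1 was called in these 3 groups and did not pass the adjustment over all genes in any of them. In HFD-U the difference was 0.36 ± 0.20 (edgeR adjusted p = 0.953), which did not pass either limit. These comparisons share the same 6 HFD-C mice, so their values are not independent of each other.

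The HFD-75% call of Flt1 rests on single mice, since it was lost without HFD-75% mouse 3 (log2 fold change 0.35), without HFD-C mouse 1 (0.40) and without HFD-C mouse 6 (0.33). The HFD-U value passed without HFD-C mouse 4 (0.49), HFD-U mouse 1 (0.43) or HFD-U mouse 2 (0.45), and with the low-share libraries alone (0.67). In HFD-25% and HFD-50%, Flt1 passed at the unadjusted limit under each of the 18 alternatives run, with log2 fold changes of 0.69 to 1.24 and of 0.59 to 1.01. With the 2 low-share HFD-C libraries as the controls, the differences of HFD-25%, HFD-50% and HFD-75% were 1.24, 1.01 and 0.74. HFD-C mouse 6 is 1 of these 2 controls and had the lowest Flt1 of HFD-C (34.5 CPM). It was also the lowest there in Tie1, Pecam1, Cdh5 and Sox18. Without this mouse and with the other HFD-C mice kept, the Flt1 differences were 0.82, 0.59 and 0.33. So the low-share values cannot be separated from this mouse.

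Tie1 (gene ID 21846, chr4:118328388-118347046 of GRCm39, minus strand) had levels of 15.9, 24.7 and 29.1 CPM (lowest, median and highest) in HFD-C, 22.3, 30.6 and 31.7 CPM in NFD-C, 20.03, 35.9 and 78.7 CPM in HFD-25% and 18.9, 30.9 and 49.6 CPM in HFD-50%. It was higher than in HFD-C by 0.77 ± 0.30 (log2, SE, edgeR adjusted p = 0.622) in HFD-25% and by 0.50 ± 0.22 (adjusted p = 0.424) in HFD-50%. In each of these groups 3 mice lay above the highest HFD-C mouse and the others were among the controls. The differences were 0.31 ± 0.18 (edgeR adjusted p = 0.985) in HFD-75% and 0.21 ± 0.19 (adjusted p = 0.997) in HFD-U, neither of which passed. The call in HFD-25% was lost without HFD-25% mouse 6 (0.48) and with the low-share libraries alone (0.99). The call in HFD-50% was lost without HFD-50% mouse 3, 5 or 6, without HFD-C mouse 1, 3 or 6, with values of 0.36 to 0.50 in these fits, with the ribosomal share as a covariate (0.59) and with the low-share libraries alone (0.71).

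**Figure D2:**
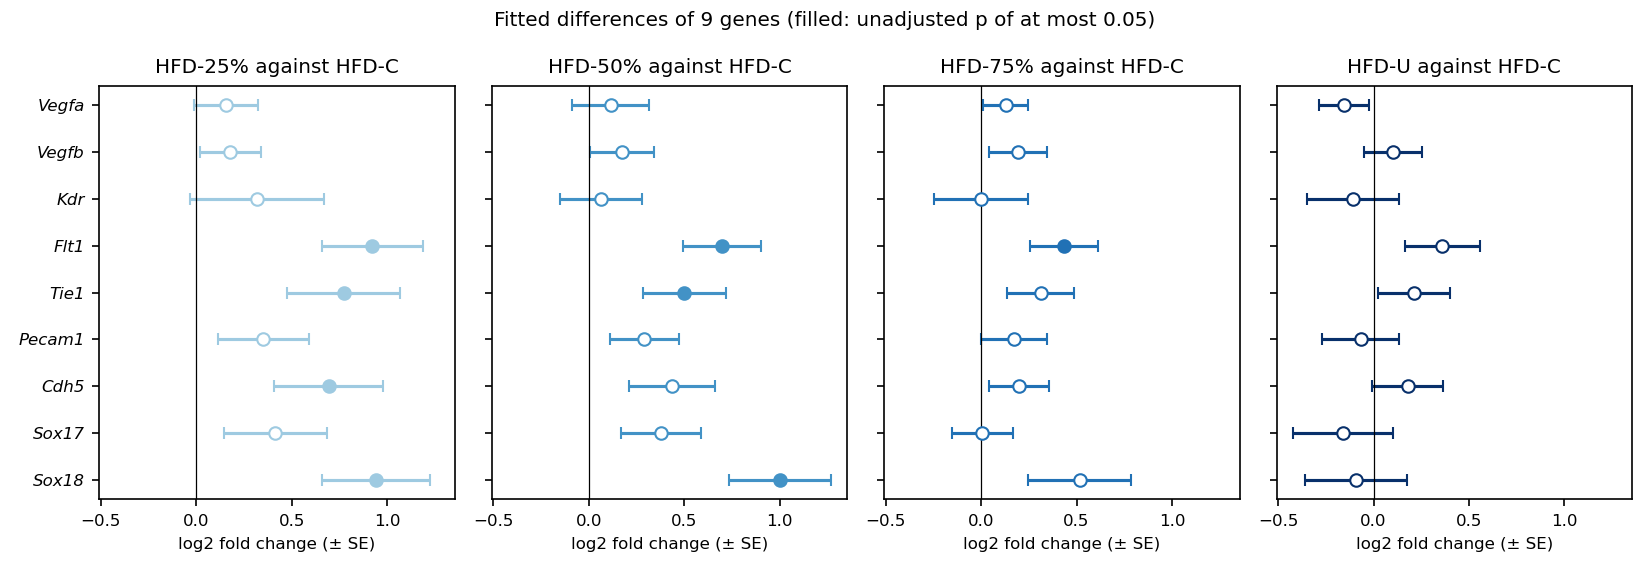
Log2 fold change against HFD-C (horizontal axis, point with SE bar) of the 9 genes that passed the minimum count, in each exercise group (panels), filled where the unadjusted p was at most 0.05. Filled points are Flt1, Tie1, Cdh5 and Sox18 in HFD-25%, Flt1, Tie1 and Sox18 in HFD-50%, Flt1 in HFD-75% and none in HFD-U.

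Cdh5 (gene ID 12562, chr8:104828247-104871136 of GRCm39, plus strand), the cadherin of endothelial junctions, had levels of 33.2, 48.1 and 60.6 CPM (lowest, median and highest) in HFD-C, 36.6, 51.3 and 60.9 CPM in NFD-C, 39.0, 72.8 and 141 CPM in HFD-25% and 32.1, 60.3 and 97.6 CPM in HFD-50%. The HFD-25% mice split, with mice 3, 4 and 6 at 97.3 to 141 CPM and the other 3 at 39.0 to 48.2 CPM, within the range of the controls. The difference from HFD-C was 0.69 ± 0.28 (log2, SE, edgeR adjusted p = 0.658) in HFD-25%. It was lost without HFD-25% mouse 3 (0.59), 4 (0.63) or 6 (0.45), without HFD-C mouse 6 (0.61) and with the low-share libraries alone (0.91). The differences were 0.43 ± 0.23 in HFD-50% (edgeR adjusted p = 0.511), 0.20 ± 0.16 in HFD-75% (adjusted p = 0.999) and 0.18 ± 0.18 in HFD-U (adjusted p = 0.997), which did not pass. The HFD-50% value passed the unadjusted limit with no minimum count and without HFD-50% mouse 4.

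Pecam1, the platelet and endothelial adhesion molecule by which vessels are often stained, had a mean of 51.0 ± 12.2 CPM in HFD-C and 45.6 ± 5.53 CPM in NFD-C. Its means were 65.8 ± 26.8 CPM in HFD-25%, 62.6 ± 15.2 CPM in HFD-50%, 57.8 ± 14.1 CPM in HFD-75% and 48.9 ± 15.5 CPM in HFD-U. The groups overlapped and no comparison passed. In bulk muscle RNA, fewer or more endothelial cells and less or more of a transcript in each of them cannot be told apart.

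Sox17 had levels of 9.12, 12.9 and 17.6 CPM (lowest, median and highest) in HFD-C, 9.54, 15.5 and 31.7 CPM in HFD-25% and 11.9, 15.4 and 25.8 CPM in HFD-50%. Its medians were 11.5 CPM in NFD-C, 12.8 CPM in HFD-75% and 12.2 CPM in HFD-U, and all groups overlapped. It did not pass in any comparison, and the HFD-25% mice above the highest control were mice 3, 4 and 6 again.

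Sox18 (gene ID 20672, chr2:181311630-181313433 of GRCm39, minus strand, protein coding), its close relative, separated the groups most clearly. Its lowest, median and highest levels were 4.26, 7.29 and 12.6 CPM in HFD-C, 4.80, 9.30 and 11.7 CPM in NFD-C, and 4.64, 7.22 and 10.2 CPM in HFD-U. They were 7.82, 16.2 and 20.9 CPM in HFD-25%, 10.3, 14.2 and 21.8 CPM in HFD-50%, and 6.67, 11.1 and 15.4 CPM in HFD-75%. Every HFD-50% mouse lay above every HFD-U mouse, 5 of 6 lay above the highest HFD-C mouse, and 4 of 6 HFD-25% mice did so.

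Against HFD-C, Sox18 was higher by 0.94 ± 0.28 (log2, SE, edgeR adjusted p = 0.427) in HFD-25% and by 1.002 ± 0.27 (adjusted p = 0.181) in HFD-50%. The difference in HFD-75% was 0.52 ± 0.27 (edgeR adjusted p = 0.957), which did not pass, and in HFD-U the means were 7.30 ± 1.86 CPM against 7.72 ± 3.34 CPM in HFD-C. Between the exercise groups, HFD-50% exceeded HFD-U by 1.09 ± 0.20 (edgeR adjusted p = 0.0731), a value of 0.92 to 1.21 over 18 alternatives. Over those alternatives the adjusted p ranged from 0.000376 with DESeq2 to 0.580 with the ribosomal share as a covariate.

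In the comparison with HFD-25% the Sox18 call was lost with the ribosomal share as a covariate (0.88), and in HFD-50% it held at the unadjusted limit under each of 18 alternatives, with values of 0.87 to 1.19. The HFD-75% value passed without HFD-75% mouse 2 (0.63), HFD-C mouse 4 (0.71) or HFD-C mouse 5 (0.63). Sox18 had 63 to 452 reads per library.

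Counted over the 10 genes, 9 passed the minimum count in HFD-25% against HFD-C, and 4 of them (Flt1, Sox18, Tie1 and Cdh5) were called, all higher, where 6.98% of all 12202 genes tested were called and 3.40% were called higher. Their median log2 fold change was 0.42, against -0.01 over all genes tested. None of the 9 passed at an adjusted p of at most 0.05, as 0.00820% of all genes did (1 gene). Without HFD-25% mouse 6, 2 were called, and with the 2 low-share HFD-C libraries alone as controls also 2, Flt1 and Sox18.

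In HFD-50% against HFD-C, 3 of 9 (Sox18, Flt1 and Tie1) were called, all higher, where 10.7% of 12116 genes were called and 5.80% called higher. The median over the 9 was 0.38, against 0.01 over all genes. At the adjusted limit no gene of the table passed with edgeR (0.00%), and with DESeq2 Sox18 did (adjusted p = 0.0298, with a range of 0.0298 to 0.452 over the alternatives). Without HFD-50% mouse 4, 5 of the 9 were called, with Cdh5 and Pecam1 added, and without HFD-C mouse 4 also 5, with Pecam1 and Sox17 added.

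In HFD-75% against HFD-C, Flt1 alone of 9 was called, as higher, where 5.47% of 12113 genes were called, 2.31% called higher and 0.00% past the adjusted limit. It was 0 of 9 without HFD-75% mouse 3, HFD-C mouse 1 or HFD-C mouse 6, and 2 of 9 without HFD-75% mouse 2, HFD-C mouse 4 or HFD-C mouse 5, with Sox18 as the second gene. A single gene of 9 lies near that background.

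In HFD-U against HFD-C, 0 of 9 were called by edgeR at an unadjusted p of at most 0.05 or at the adjusted limit, and 0 by DESeq2 at either, where 5.46% of 12023 genes were called and 0.00% passed the adjusted limit. The median of the 9 was -0.07. With the mouse number as a block Flt1 passed at the unadjusted limit (log2 fold change 0.36, edgeR adjusted p = 0.390), so 1 of 9 was called. It was also 1 of 9 without HFD-C mouse 4, HFD-U mouse 1, HFD-U mouse 2 or HFD-U mouse 4, the last for a lower Vegfa.

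The diets, HFD-C against NFD-C, gave 0 of 10 called by edgeR at the unadjusted or the adjusted limit and 0 by DESeq2 at either, where 4.12% of 12247 genes were called and 0.00% passed the adjusted limit. The median of the 10 was -0.11. Tie1 became the 1 gene called, as lower in HFD-C, without NFD-C mouse 2 or HFD-C mouse 4.

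HFD-50% against HFD-U gave 1 of 9, Sox18, as higher, where 12.4% of 11851 genes were called, 7.08% called higher and 0.00844% passed the adjusted limit (1 gene, none of the 9). The median of the 9 was 0.29, and Flt1 was 0.34 ± 0.20 (SE, edgeR adjusted p = 0.499) higher in HFD-50%, which did not pass. Without HFD-U mouse 4, which had the highest level of its group in Flt1, Tie1, Kdr, Pecam1, Cdh5 and Sox17, 4 of 9 were called, without HFD-50% mouse 4, 3, and without HFD-50% mouse 1, 2. Here the slow fibre genes moved too: Myh7, the slow myosin, and Tnni1, the slow troponin I, were higher in HFD-50% by 1.99 ± 0.54 (edgeR adjusted p = 0.239) and 2.09 ± 0.60 (adjusted p = 0.247), and 4 of the 5 slow fibre genes were called. On the mural list 2 of 9 were also called higher, Acta2, the smooth muscle actin (0.60 ± 0.21, edgeR adjusted p = 0.290), and Pdgfb (0.33 ± 0.14, adjusted p = 0.361). Pdgfb encodes a growth factor and is not itself a marker of mural cells. Of the Schwann cell markers Pmp22 (0.43 ± 0.20, adjusted p = 0.387) was called higher, 1 of 4. Their part in the Sox18 difference was not tested. The summed slow fibre level was 315 to 2636 CPM in HFD-50% and 60.2 to 1149 CPM in HFD-U. With this level as a covariate, chosen after the data were seen, the Sox18 value was 0.92 (edgeR adjusted p = 0.339), within the unadjusted limit. The Flt1 value was -0.06, and Flt1 passed neither with nor without the covariate. The slow fibre genes differed between the groups compared, so this fit cannot separate their level from the running distance.

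All 24 running mice together against HFD-C gave 2 of 9, Flt1 and Sox18, both higher, where 9.27% of 12006 genes were called, 4.15% called higher and 0.300% passed the adjusted limit. Flt1 was higher by 0.62 ± 0.21 (log2, SE, edgeR adjusted p = 0.255) and Sox18 by 0.65 ± 0.26 (adjusted p = 0.414). With the low-share libraries alone only Flt1 was called (0.93). The differences of Tie1 (0.46 ± 0.23, edgeR adjusted p = 0.559) and Cdh5 (0.39 ± 0.22, adjusted p = 0.619) did not pass, and the median of the 9 was 0.19. Tie1 passed the unadjusted limit under 3 of 6 alternatives, with DESeq2 (0.47), with no minimum count (0.47) and with the ribosomal share as a covariate (0.74).

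Distance was tested as a linear and a quadratic term over the 24 running mice, which leaves out the sedentary libraries and their ribosomal share. Sox18 (edgeR adjusted p = 0.0687) and Flt1 (adjusted p = 0.568) were called, 2 of 9, where 8.49% of 11935 genes were called and 0.0419% (5 genes) passed the adjusted limit. Both had higher means at 2.1 and 4.2 km/day than at 6.3 and 8.3 km/day.

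Over all 6 groups in 1 fit of the 36 mice, Sox18 (edgeR adjusted p = 0.0194) was the 1 gene of 9 past the adjusted limit, and Flt1 (adjusted p = 0.156) passed the unadjusted limit, where 12.2% of 12053 genes were called and 1.45% passed the adjusted limit. The adjusted p of Sox18 ranged from 0.000406 to 0.135 over 7 alternatives, and it was over the limit with the ribosomal share as a covariate (0.0930), with the slow fibre level as a covariate (0.0661) and in the low-share libraries without NFD-C (0.135). In order of increasing group means, Sox18 ran from HFD-U over HFD-C, NFD-C, HFD-75% and HFD-25% to HFD-50%. No neighbours in such an order differed beyond the spread between mice for any of the 10 genes, with exact two-sided permutation p-values of 0.147 or more over 50 comparisons. Sorting by the means leaves only the smallest gaps to these tests, so they cannot say whether groups farther apart differ.

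**Figure D3:**
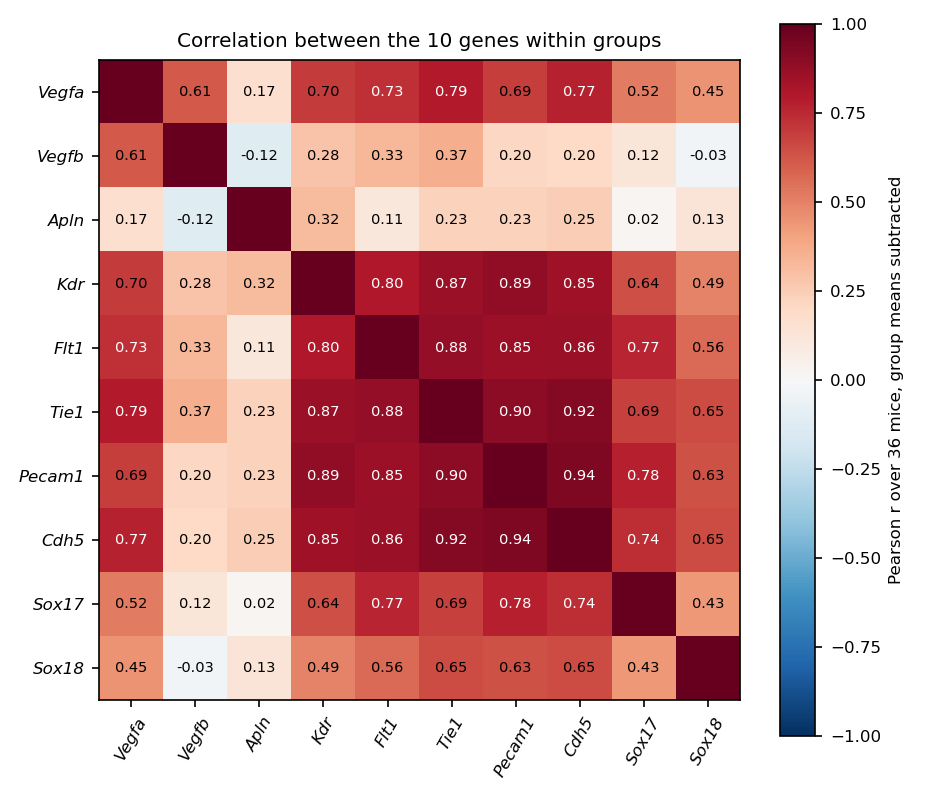
Pearson correlation (colour and printed value) between each pair of the 10 genes over 36 mice, on log2(CPM + 1) with group means subtracted. The block of Kdr, Flt1, Tie1, Pecam1 and Cdh5 holds values of 0.80 to 0.94, and the rows of Vegfb and Apln are pale.

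Within groups, the genes of the endothelial cell itself moved together. Group means were subtracted from log2(CPM + 1), and 45 pairs were tested by permuting mice within groups, with 100000 resamples. For the 10 pairs among Kdr, Flt1, Tie1, Pecam1 and Cdh5, Pearson's r was 0.80 to 0.94 and Spearman's rho 0.79 to 0.90, with a permutation p adjusted over the 45 pairs of at most 3e-05. Without the 2 mice farthest from the median, r was 0.75 to 0.93, and in the 26 low-share libraries 0.84 to 0.96.

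Sox17 followed these 5 genes with r of 0.64 to 0.78 and Sox18 with r of 0.49 to 0.65. Vegfa, though a ligand, also followed them, with r of 0.69 to 0.79 (rho 0.64 to 0.77, largest permutation p adjusted over the 45 pairs 5.62e-05). Vegfb with r of 0.20 to 0.37 and Apln with r of 0.11 to 0.32 passed for none of the 5, and the counts of Apln are too sparse for its r to say more. In all, 29 of the 45 pairs passed at an adjusted permutation p of at most 0.05.

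The genes most like Pecam1 over the 36 mice among 11948 genes were Cdh5 (r = 0.94), Cxcl12, a chemokine (r = 0.93), and Cav1, the caveolin of endothelial caveolae (r = 0.92). For Sox17 they were S1pr1, the sphingosine 1-phosphate receptor of endothelium (r = 0.91), Esam, an endothelial adhesion molecule (r = 0.88), and Tcim (r = 0.87). For Vegfa they were Grip2 (r = 0.86), Myo7a (r = 0.86) and Tnfsf10 (r = 0.84), genes of 5.69 to 6.64 mean CPM. For Apln they were Shc1, Plcb3 and Plxnd1, with r of only 0.59 to 0.60.

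**Figure D4:**
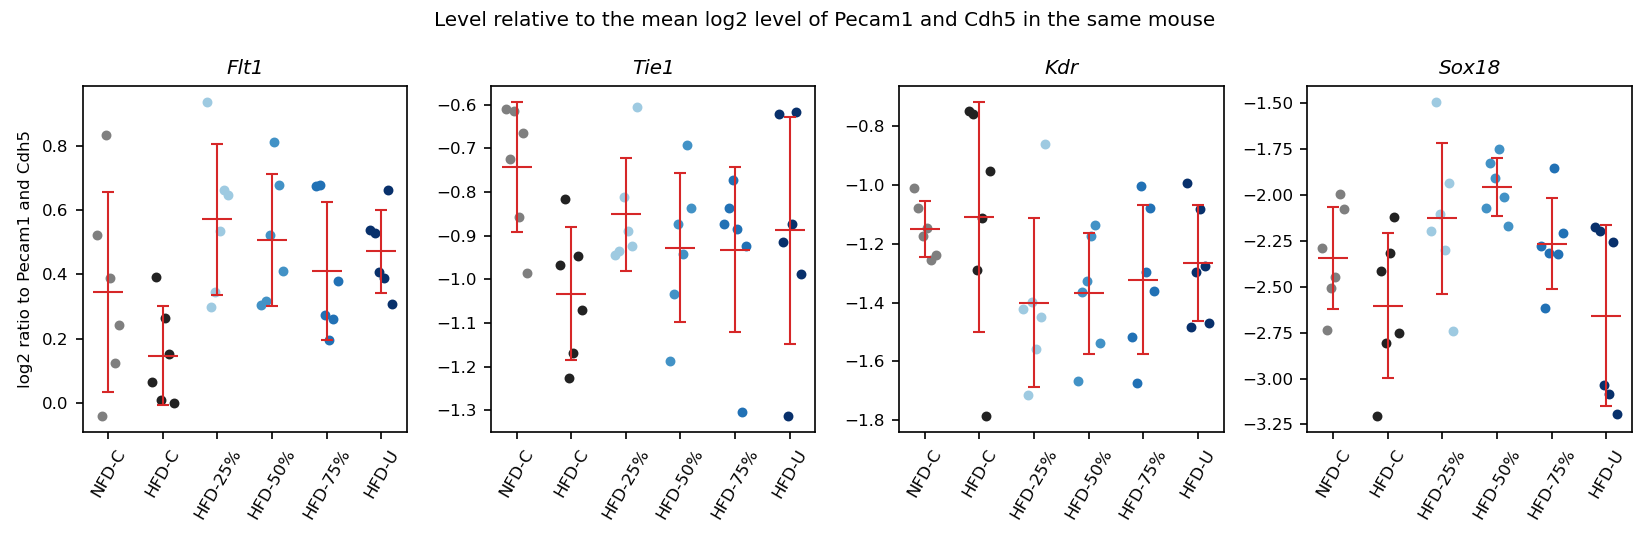
Log2 ratio of Flt1, Tie1, Kdr and Sox18 to the mean log2 level of Pecam1 and Cdh5 in the same mouse (vertical axis), by group (horizontal axis), with the mean and SD in red. The ratio of Sox18 lies between -2.17 and -1.75 in HFD-50% and between -3.19 and -2.18 in HFD-U, and the mean ratio of Flt1 is lowest in HFD-C.

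Since Pecam1 and Cdh5 varied so closely together, the other genes were also set against them in each mouse, a scale chosen after the data were seen. The log2 ratio of Flt1 to the mean of Pecam1 and Cdh5 was 0.15 ± 0.16 (SD, n = 6) in HFD-C, and the exercise groups had 0.57 ± 0.23 (HFD-25%), 0.51 ± 0.20 (HFD-50%), 0.41 ± 0.21 (HFD-75%) and 0.47 ± 0.13 (HFD-U). It was higher than in HFD-C with an exact permutation p of 0.00866, 0.00866, 0.0368 and 0.00649 in these groups, in that order. Adjusted over 35 such tests the permutation p was 0.0606 in HFD-25%, HFD-50% and HFD-U and 0.215 in HFD-75%, and 4 of 6 mice in each of HFD-25%, HFD-50% and HFD-U lay above the highest HFD-C mouse. The NFD-C mice had 0.34 ± 0.31, so they overlapped both HFD-C and the exercise groups.

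The ratio of Sox18 was -2.60 ± 0.40 in HFD-C, -1.96 ± 0.16 in HFD-50% and -2.66 ± 0.49 in HFD-U. HFD-50% was higher than HFD-C (exact permutation p = 0.00433) and than HFD-U (exact permutation p = 0.00216, the smallest that 6 mice against 6 can give), each with an adjusted permutation p of 0.0606. The ratio of Kdr had means of -1.40 to -1.11 over the 6 groups, and no exercise group passed against HFD-C by the exact permutation test. Relative to the junction genes, Flt1 was thus higher than in HFD-C in all 4 exercise groups, Sox18 in HFD-50% and Tie1 in HFD-25% (exact permutation p = 0.0455) at the unadjusted limit, and none of the 35 tests passed after adjustment. The sedentary NFD-C mice had a Tie1 ratio of -0.74 ± 0.15, above both HFD-25% (-0.85 ± 0.13) and HFD-C (-1.03 ± 0.15). Their Sox18 ratio was -2.34 ± 0.28.

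**Figure D5:**
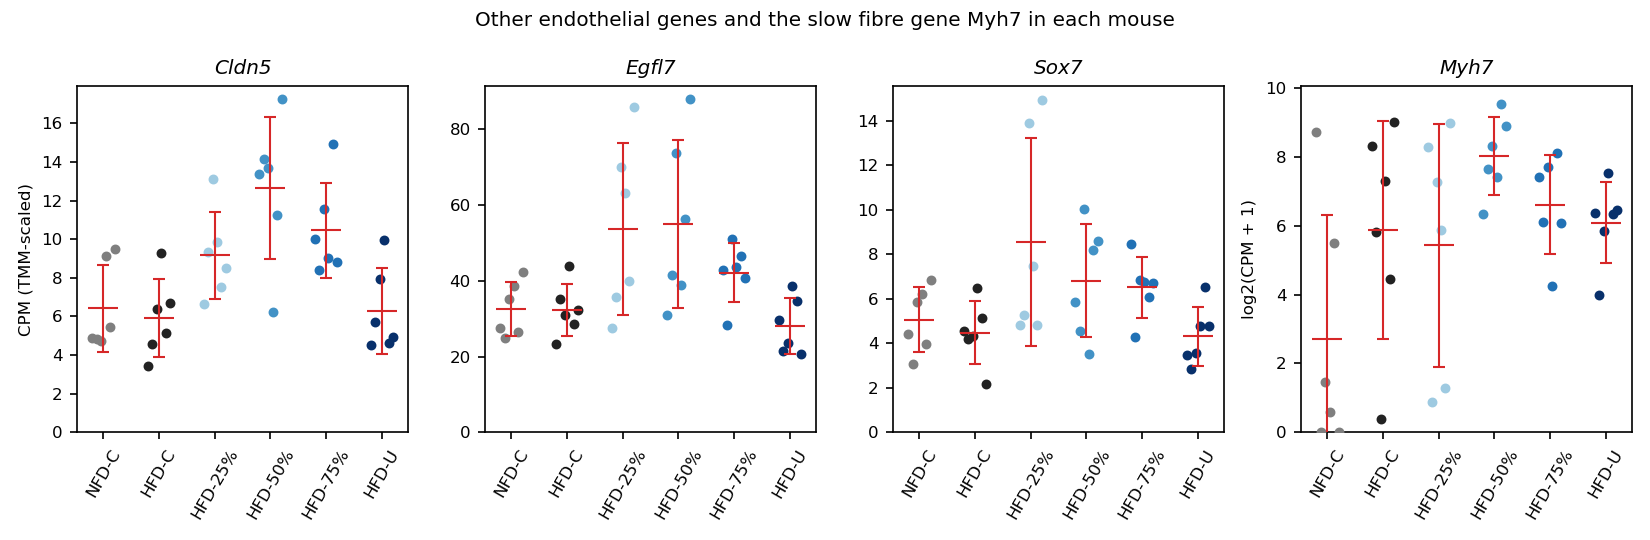
Levels of Cldn5, Egfl7 and Sox7 in CPM, and of the slow fibre gene Myh7 as log2(CPM + 1) (vertical axes), in each mouse of the 6 groups (horizontal axis), with the mean and SD in red. Cldn5, Egfl7 and Sox7 have lower means in HFD-C and HFD-U than in HFD-25%, HFD-50% and HFD-75%, and Myh7 varies widely within every group.

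Other endothelial genes were taken from lists. Of 19 further surface and junction genes tested, HFD-50% had 9 called against HFD-C, HFD-25% had 6, HFD-75% had 4 and HFD-U had 0, all of them higher. Of all genes tested, 5.80%, 3.40% and 2.31% were called higher in the first 3 of these comparisons, and 5.46% were called in either direction in HFD-U. The medians of the 19 in the same order were 0.34, 0.43, 0.16 and -0.03. Cldn5, the claudin of tight junctions, was higher by 1.09 ± 0.25 (log2, SE, edgeR adjusted p = 0.134) in HFD-50% and 0.82 ± 0.23 (adjusted p = 0.471) in HFD-75%. Aqp1, the water channel, was higher by 0.81 ± 0.25 (adjusted p = 0.452) in HFD-25%, and Plvap, the protein of fenestral diaphragms, by 0.70 ± 0.20 (adjusted p = 0.207) in HFD-50%.

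In the fit of the 6 groups, Cldn5 (edgeR adjusted p = 0.0196) and Egfl7, a secreted factor of endothelium (adjusted p = 0.0429), were the 2 of 19 past the adjusted limit. Of all 12053 genes tested, 1.45% passed it. These 2 genes were not followed under the alternatives in which Sox18 lost that limit. Cldn5 had means of 5.91 ± 2.04 CPM in HFD-C, 9.17 ± 2.26 CPM in HFD-25%, 12.7 ± 3.69 CPM in HFD-50%, 10.5 ± 2.47 CPM in HFD-75% and 6.28 ± 2.21 CPM in HFD-U. Like Sox18, it had its highest mean in HFD-50% and means near each other in HFD-C and HFD-U.

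Of 11 other endothelial transcription factors, Sox7, the third SoxF gene, was higher in HFD-25% by 0.91 ± 0.33 (log2, SE, edgeR adjusted p = 0.569) and Tal1 by 0.77 ± 0.28 (adjusted p = 0.578). In HFD-50% Tal1 was the 1 gene called, in HFD-75% Sox7 was higher and Klf2, which flow induces, was lower (log2 fold change -0.67 ± 0.31, edgeR adjusted p = 0.894). In HFD-U Klf2 and Klf4 were lower and none was higher.

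Of the other pathway genes, 0 of 10 ligands and receptors of the VEGF, angiopoietin and apelin families were called in HFD-25% and 0 of 10 in HFD-75%. In HFD-50% Vegfd was the 1 of 9 called (log2 fold change 1.27 ± 0.49, edgeR adjusted p = 0.370), with levels of 5.45, 7.09 and 45.6 CPM (lowest, median and highest) against 3.52, 5.68 and 7.45 CPM in HFD-C. The highest HFD-50% mouse stood far above its group. A count of 1 of 9 lies near the 10.7% of all genes called in HFD-50%. Between HFD-50% and HFD-U, Angpt1, the ligand of Tek, and Pgf, the placental growth factor, were lower in HFD-50% with log2 fold changes of -0.80 ± 0.28 and -0.69 ± 0.27 (edgeR adjusted p = 0.290 and 0.336).

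Of 11 hypoxia response genes, 1 was called in HFD-25% and 1 in HFD-75%, which was Vhl, the gene that marks hypoxia factors for breakdown, with log2 fold changes of -0.45 ± 0.16 and -0.38 ± 0.14 (SE, edgeR adjusted p = 0.578 and 0.756), and 0 were called in HFD-50% or HFD-U. A count of 1 of 11 lies near the 6.98% and 5.47% of all genes called in HFD-25% and HFD-75%. Of 9 angiogenesis inhibitors, Timp3 was higher in HFD-25% by 0.49 ± 0.20 (edgeR adjusted p = 0.667) and Thbs1 was lower (log2 fold change -0.90 ± 0.41, adjusted p = 0.701). In HFD-50% Timp3 was the 1 of 9 called, near the 10.7% of all genes called there, and in HFD-75% and HFD-U it was 0 of 9.

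Markers of other cells were read beside these values. Mural cells wrap the vessels, and of the 9 genes on their list Pdgfrb, the receptor for platelet-derived growth factor, was the 1 called in HFD-25% (0.63 ± 0.26, edgeR adjusted p = 0.669) and in HFD-50% (0.59 ± 0.21, adjusted p = 0.321). In HFD-75% 0 of 9 were called. In HFD-U the growth factor gene Pdgfb, not itself a marker of mural cells, was the 1 called, as lower (-0.30 ± 0.13, edgeR adjusted p = 0.883). The summed level of the mural list was 426 to 747 CPM in HFD-C, 622 to 870 CPM in HFD-25% and 546 to 853 CPM in HFD-50%, and its part in the results was not tested. Of 5 lymphatic markers 0 were called in these comparisons, with sums of 9.46 to 20.5 CPM in HFD-C and 10.3 to 22.1 CPM in HFD-25%. The 7 fibre markers had 0 called in any of the 4 comparisons with HFD-C. Their summed level still differed between mice. It was 96426, 86093 and 73491 CPM in HFD-25% mice 3, 4 and 6, and 118481 to 125298 CPM in mice 1, 2 and 5. HFD-U mouse 4 had the lowest sum of its group (90727 CPM). So did HFD-50% mouse 4 (74565 CPM), which had the lowest Cdh5 of its group. The part of fibre content in the vessel gene values was not tested.

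Of 5 fibroblast genes, 2 were called lower in HFD-25%. These were Col1a1 and Col3a1, with log2 fold changes of -0.81 ± 0.24 and -0.55 ± 0.24 (edgeR adjusted p = 0.427 and 0.693). The median of the 5 was -0.16 there, and 1 was positive. In HFD-50% Col1a1 was the 1 of 5 called (-0.99 ± 0.41, edgeR adjusted p = 0.407), with a median of -0.38. In HFD-75% 3 of 5 were called lower (median -0.48). None of the 5 was called in HFD-U, where the median was -0.27. Of all genes tested, 6.98% were called in either direction in HFD-25%, 10.7% in HFD-50% and 5.47% in HFD-75%. Adipocyte genes had sums of 2.30 to 83.697 CPM in HFD-C (median 7.37), 1.10 to 22.7 CPM in HFD-25% (median 6.98) and 1.39 to 14.2 CPM in HFD-U (median 8.72). The highest HFD-C sum was that of mouse 6 alone, and the next was 17.5 CPM in mouse 2. Of these genes 3 of 4 were called lower in HFD-U, among them Lep, the gene of leptin, with a log2 fold change of -3.54 ± 0.89 (SE, edgeR adjusted p = 0.402), although the median of the sums was not lower there. Lep was also the 1 of 4 called in HFD-25% (-2.22 ± 0.89, edgeR adjusted p = 0.643), and 2 of 3 were called lower over the 24 running mice.

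Blood genes had sums of 170 to 407 CPM in HFD-C and 145 to 331 CPM in HFD-25%. None of the 5 was called in HFD-25% or HFD-50%, and Hba-a2, a globin, was the 1 called in HFD-75% (log2 fold change -0.80 ± 0.33, edgeR adjusted p = 0.847) and in HFD-U (-0.76 ± 0.26, adjusted p = 0.702). Of 4 macrophage markers 0 were called in HFD-25% or HFD-50%. In HFD-75% 2 were lower, Cd68 (-0.86 ± 0.29, edgeR adjusted p = 0.645) and Csf1r (-0.48 ± 0.23, adjusted p = 0.911), and Cd68 was the 1 called in HFD-U (-0.69 ± 0.30, adjusted p = 0.883) and over the 24 running mice (-0.53 ± 0.22, adjusted p = 0.425). Of 4 Schwann cell markers 0 were called in any of the 4 exercise groups against HFD-C. The part of these cells in the vessel gene values was not tested.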

How the data were processed

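RNA from 1 gastrocnemius of each of 36 mice was sequenced as poly(A)-selected libraries. The authors deposited 1 table of raw read counts per gene, and it also holds a gene length in bases. The submitters' processing notes name HISAT2 2.0.5, StringTie 1.3.3b, featureCounts 1.5.0-p3, DESeq2 1.20.0 and edgeR 3.22.5, and list the build mm10, whereas the chromosome accessions in the table are those of GRCm39. Groups came from the sample labels. The 562 features without a gene name (0.151 to 0.576% of counts) stayed in the scaling, the fits and the shares of all genes. They were left out only of the search for the genes most alike in pattern.

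Counts were scaled with TMM factors and tested in R 4.3.3 with edgeR 4.0.16 (quasi-likelihood) on genes whose mean count reached 25 in the libraries compared, with Benjamini-Hochberg adjustment over all genes, and with DESeq2 1.42.0 as an alternative. Exact and permutation tests were two-sided and used scipy 1.17.1 in Python 3.11.15. A pseudocount of 1 was added before logarithms of CPM. Libraries of a group differed beyond sampling noise (chi-square per degree of freedom 14.7 to 181), so all 36 were kept as replicates. The SD values are between mice. Each SE of a log2 fold change is its size divided by the square root of the edgeR F value, so it includes the spread between mice. Only the upper limit given for Apln covers counting error alone.

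Mouse numbers pair samples only by name in the labels. In HFD-U against HFD-C the deviations of the 6 same-numbered pairs correlated with values of 0.144 to 0.554. Mice of different numbers were not compared, so these values cannot show that the numbers pair mice. A fit blocked on the numbers is given beside that result. Of each list, the 2 genes with the lowest p among those called in a comparison are named, and for Pecam1, Sox17, Vegfa and Apln the 3 genes most alike in pattern. The 4 further genes plotted were picked after their values were seen. The genes and lists were chosen with earlier results of these data known. Code was tested on simulated data.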

Additional observations from a re-analysis of the deposited data

Results flagged for a closer look

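In HFD-75%, mouse 3 had a Tie1 level of 46.9 CPM, where the other 5 mice of its group had 23.6 to 29.0 CPM. Its gap to the next mouse was 0.770 of the range of the group, above Dixon's critical value of 0.625 for 6 samples. It was the 1 such value among 60 checks of a gene in a group, and chance gives about 1 in 20. The same mouse had the highest Flt1, Kdr, Pecam1, Cdh5 and Sox18 levels of its group, and without it Flt1 in HFD-75% no longer passed (log2 fold change 0.35).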

How the results depend on the processing

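Counts of genes called at an unadjusted p of at most 0.05 moved as follows. With the mouse number as a replicate block, 2 were called in HFD-25% (without Tie1 and Cdh5), 3 in HFD-50% (Tie1 at 0.44 no longer passed and Sox17 at 0.35 did), 2 in HFD-75%, 1 in HFD-U, 1 in HFD-C against NFD-C (Tie1, log2 fold change -0.27) and 2 in HFD-50% against HFD-U (with Sox17). In the comparisons other than HFD-U against HFD-C, 1 to 5 of 6 same-numbered pairs correlated above 0.1, and whether the numbers pair mice was not tested. With the low-share libraries alone, 2 were called in HFD-25%, 1 in HFD-U and 1 over all running mice, and with the high-share libraries 1 in HFD-C against NFD-C. With the ribosomal share as a covariate the counts were 2 in HFD-75%, 1 in HFD-U, 1 in HFD-C against NFD-C, 4 over all running mice and 1 for distance. With no minimum count they were 2 in HFD-75%, 1 in HFD-U, 2 in HFD-50% against HFD-U and 4 over the 6 groups. With the slow fibre level as a covariate, chosen after seeing the data, 5 were called for distance, and Flt1 in HFD-50% against HFD-U turned to -0.063. The causes of these moves were not tested. The share of all genes called was counted only in the main fits. So the counts under other settings, and those without 1 mouse, have no background share to be read against.

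At the adjusted limit, DESeq2 called 1 gene in HFD-50% against HFD-C, in HFD-50% against HFD-U and for distance, and 2 over the 6 groups. With no minimum count, edgeR called 1 in HFD-50% against HFD-U and 1 for distance. The 1 gene over the 6 groups became 0 with the ribosomal share or the slow fibre level as a covariate and in the low-share libraries without NFD-C. Leaving out 1 mouse at a time gave 2 to 4 called genes in HFD-25%, 2 to 5 in HFD-50%, 0 to 2 in HFD-75%, 0 to 1 in HFD-U, 0 to 1 in HFD-C against NFD-C and 1 to 4 in HFD-50% against HFD-U at the unadjusted limit, and 0 in each at the adjusted limit. Over the 6 groups the low-share set could not be fitted with NFD-C, which has no such library. Apln, with 0 to 47 reads, was limited by depth.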
